A study of Rattus norvegicus with 12 samples.

Results

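The genes that fold, modify and export secreted proteins in the endoplasmic reticulum (ER) were followed across 3 zones of young rat cartilage. The set was chosen by gene symbol and role, with earlier results of these data known. It holds 38 genes, namely ER chaperones, protein disulfide isomerases, transcription factors of the unfolded protein response, ER-associated degradation genes, translocation genes, coat protein II (COPII) export genes and KDEL receptors. Of these, 35 had a transcript cluster that carries their symbol, out of 14300 genes named on the arrays, and Edem1, Sec23b and Mia3 had none. Each of the 35 had 1 cluster, and all 35 lay above the median level of all 27342 clusters. The samples were microdissected from the proximal tibial epiphysis of untreated 10-day-old Sprague-Dawley rats on Affymetrix Rat Gene 1.0 ST arrays, with 4 arrays for each zone. The superficial zone (SZ) and the intermediate/deep zone (IDZ) belong to articular cartilage, and the resting zone (RZ) to the growth plate. Each SZ sample held both tibias of 1 animal and came from animals 5 to 8, whereas each IDZ and RZ sample pooled 4 tibias of 2 animals, so that an IDZ and an RZ sample with equal numbers had the same animals. The animals of SZ replicates 1 and 2 were also those of IDZ and RZ replicate 3. The animals of SZ replicates 3 and 4 were those of IDZ and RZ replicate 4. All 3 comparisons thus share animals, but the main fit has no term for them. A term for the pair of animals was used only in alternatives. Pooling therefore differed between SZ and the other zones and cannot be told apart from the zone. All values below are log2 values and all differences are on the log2 scale, with standard deviation (SD) or standard error (SE), and a difference was called where its adjusted p in limma lay under 0.05. The tissue was cut by hand from eosin-stained sections, so a sample holds whatever cells lay within the cut.

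Chondrocytes secrete large amounts of collagen and proteoglycan, and every such protein first enters the ER through the Sec61 channel. There chaperones such as BiP (Hspa5) hold the chains, disulfide isomerases form their cross-links, and COPII vesicles carry the folded proteins to the Golgi. Misfolded chains are sent back to the cytosol for degradation, and an overload activates the unfolded protein response, whose sensors act through the transcription factors Xbp1, Atf6 and Atf4. Creb3l1 (OASIS) and Creb3l2 (BBF2H7) are related transcription factors anchored in the ER membrane, the first known from osteoblasts and fibroblasts and the second from chondrocytes, where it is known to activate Sec23a.

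The zone labels were checked against Prg4, which encodes lubricin of the joint surface, and it read 12.53 to 12.97 in SZ, 8.86 to 10.95 in IDZ and 5.24 to 6.40 in RZ. The chondrocyte collagen gene Col2a1 read 13.60 to 13.91 on all 12 arrays. It was the exception among 13 measured cartilage matrix and chondrocyte genes. The other 12 were called lower in SZ than in IDZ (11.2% of all clusters) and than in RZ (11.1%). SZ replicate 4 stood apart, with the narrowest interquartile range (2.24, against 2.50 to 2.91 on the others) and the lowest mean correlation with its own zone (0.973, against 0.984 to 0.994). It was the lowest SZ array for 27 of the 35 genes, as it was for 41.3% of all clusters and 66.8% of those above the median level. SZ was also higher than IDZ for several lists taken as markers of other tissues. All 11 measured fibrous tissue genes, 5 of 6 endothelial genes and 8 of 8 macrophage genes passed the test as higher in SZ than IDZ. So did 5 of 5 adipocyte genes and 3 of 4 osteoclast genes, against 11.8% of all clusters. The mean level of the fibrous list was 11.43 to 11.83 on the SZ arrays, 8.90 to 9.50 in IDZ and 7.97 to 8.47 in RZ, with Col1a1 at 13.74 ± 0.03, 11.81 ± 0.55 and 10.99 ± 0.76 (SD, n = 4 each). The macrophage list had means of 8.64 to 9.60 in SZ, 6.98 to 7.04 in IDZ and 6.63 to 7.35 in RZ, with Csf1r at 9.80, 7.37 and 7.14. None of 3 plasma cell genes and none of 4 erythroid genes was called in any comparison. The erythroid list varied widely between arrays, with means of 6.53 to 8.83 in SZ, 7.04 to 8.35 in IDZ and 7.08 to 9.30 in RZ. All 4 erythroid genes had higher means in RZ than in IDZ, with a median difference of 0.87. The array has no detection call, so no marker could be listed as absent, and the part of other cell types in the results below was not tested.

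The ER genes were a little higher in RZ than in IDZ as a group, and few of them differed by much. A total of 18 of the 35 genes were called in at least 1 comparison, against 30.2% of all clusters and 45.8% of those above the median level, and 17 in none. In 30 of the 35 no pair of zones differed by 1.5-fold or more, and Creb3l1 was the single gene past 2-fold, higher in SZ than in IDZ (2.96% of all clusters) and than in RZ (3.19%). RZ had the highest mean for 26 genes, SZ for 8 and IDZ for 1. A higher level in RNA of a whole zone cannot tell more cells of a type from more RNA per cell.

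Between RZ and IDZ, the mean was higher in RZ for 32 of 35 genes, against 56.6% of all clusters above the median level and 41.7% of all clusters. In 21 genes all 4 RZ arrays lay above all 4 IDZ arrays, against 11.1% of all clusters and 19.7% of those above the median level. The median difference of the 35 genes was 0.24 (RZ minus IDZ). That of all clusters was -0.03 and that of clusters above the median level 0.03. At an adjusted p under 0.05, 4 genes were higher in RZ, which is 11.4% of the members against 3.95% of all clusters and 6.77% of those above the median level. In the other direction 1 gene was higher in IDZ, against 2.78% of all clusters and 4.4% of those above the median level. The mean level of the 35 genes ran from 10.19 to 10.27 over IDZ and from 10.37 to 10.53 over RZ without overlap. RZ replicate 1 was the highest RZ array for 23 genes and had the widest interquartile range of the RZ arrays (2.73). The share of all clusters highest on that array was not counted. The 7 measured proliferation genes were all higher in RZ than in IDZ too, with list means of 8.62 to 8.87 and 7.84 to 7.92. Osteoblast markers had higher RZ than IDZ means in 7 of 7 genes, with 3 called, against 3.95% of all clusters. Their list means were 7.69 to 8.26 in RZ and 6.94 to 7.24 in IDZ. Of 5 hypertrophic chondrocyte markers 2 were called higher in RZ, against the same 3.95%, with overlapping list means of 8.18 to 9.12 and 8.13 to 8.46. The part of these cells in the result was not tested.

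The number of genes called higher in RZ than in IDZ changed with the arrays and the terms in the fit. It was 15 with the arrays of RZ and IDZ alone (8.91% of all clusters) and 16 without SZ replicate 4 (8.61%). The SZ arrays enter this count only through the shared estimate of the spread. It was 1 with a fixed term for the pair of animals (2.37%) and 2 with a random one (3.12%). Without IDZ replicate 1, 2 or 3, or RZ replicate 1 or 2, it was 1, and without IDZ replicate 4 or RZ replicate 3 it was 2. The median difference stayed between 0.20 and 0.25 when any array was left out and between 0.18 and 0.28 under other scalings.

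SZ and IDZ differed in both directions, in shares no higher than those of clusters above the median level. SZ was higher for 6 genes, 17.1% of the members against 11.8% of all clusters and 18% of those above the median level. IDZ was higher for 3 genes, 8.57% of the members against 11.2% and 16.8%. The median difference was 0.00 (SZ minus IDZ) for the members, -0.08 for all clusters and -0.05 for clusters above the median level. All 7 proliferation genes were called higher in SZ than IDZ here, with list means of 8.06 to 8.995 and 7.84 to 7.92, and their part was not tested. Without SZ replicate 4 the genes higher in SZ numbered 11, against 18.1% of all clusters, and the median difference was 0.11. With a fixed term for the pair of animals the genes higher in SZ were 2, Creb3l1 and Sdf2l1, against 8.65% of all clusters. Those higher in IDZ were then 0, against 6.35%.

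Between RZ and SZ, 11 genes were higher in RZ, 31.4% of the members against 11.1% of all clusters and 18.4% of those above the median level. A single gene, Creb3l1, was higher in SZ, against 10% of all clusters and 14.2% of those above the median level. The median difference was -0.17 (SZ minus RZ) for the members, -0.03 for all clusters and -0.08 for clusters above the median level. Leaving out SZ replicate 4 left the 11 genes, against 15.3% of all clusters, and added Atf6 to those higher in SZ, against 13.5%. A fixed term for the pair of animals left 6 genes higher in RZ, against 6.95%. These 3 comparisons share arrays, so their counts are not independent of each other.

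**Figure D1:**
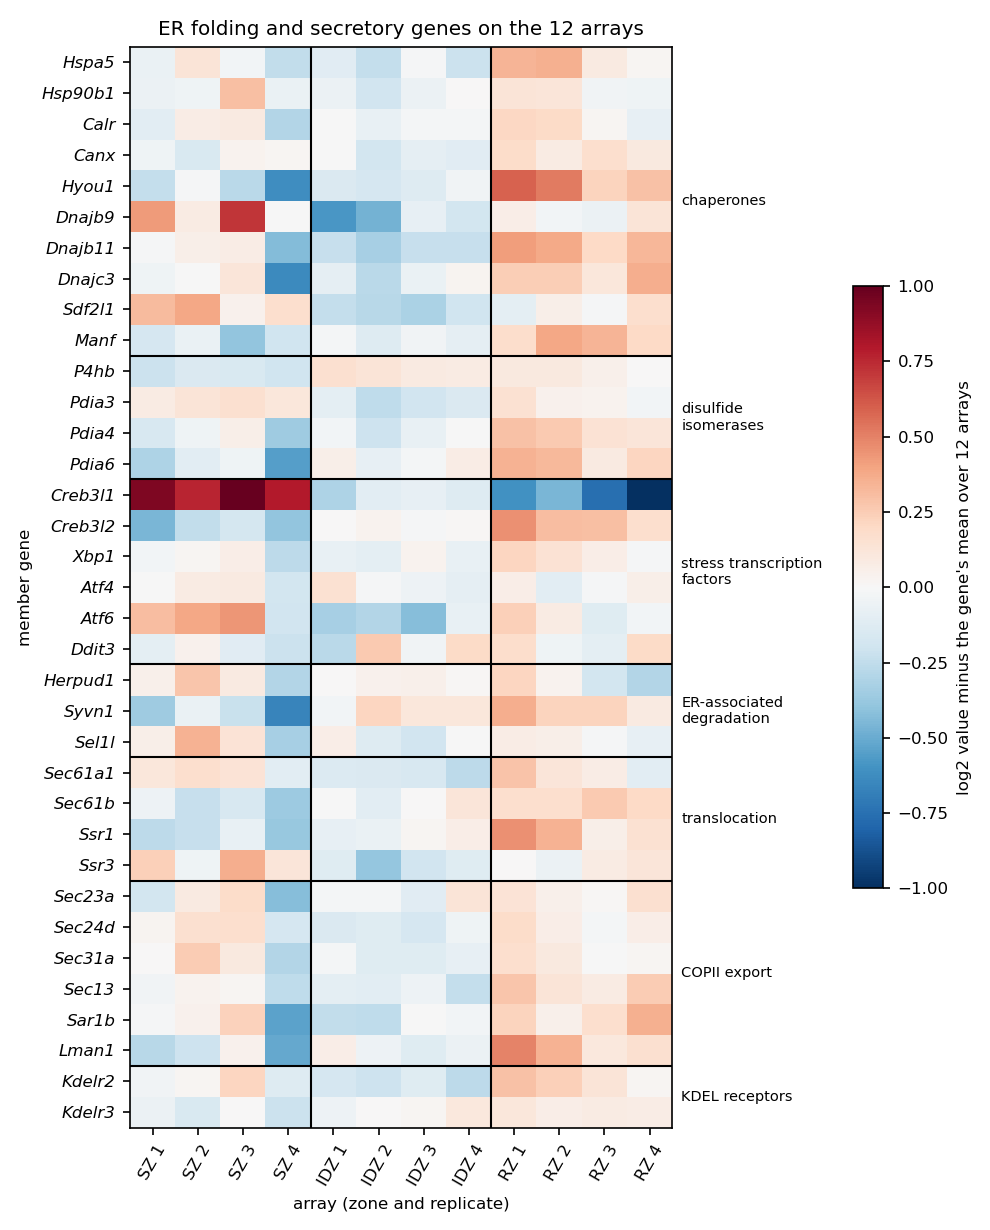
Rows are the 35 measured genes by role, columns are the 12 arrays by zone and replicate, and the colour is the log2 value minus the gene's own mean over all arrays, with colours ending at 1 in either direction. Most rows are red in RZ, SZ replicate 4 is blue in most rows, and Creb3l1 runs from red in SZ to blue in RZ.

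The transcription factor genes of the stress response held the widest and the narrowest differences of the set. Creb3l1 was the gene that differed most and was called in all 3 comparisons. It read 10.96, 10.78, 11.12 and 10.82 on the SZ arrays, 9.71, 9.92, 9.94 and 9.89 on the IDZ arrays and 9.42, 9.57, 9.27 and 8.88 on the RZ arrays. The 3 zones did not overlap and were ordered SZ, IDZ, RZ. SZ was above IDZ by 1.05 (SE 0.13, 2.07-fold, adjusted p = 3.1e-05) and above RZ by 1.63 (SE 0.13, 3.10-fold, adjusted p = 2.4e-07). Both calls held under all 26 alternatives. IDZ was above RZ by 0.58 (SE 0.13, adjusted p = 0.016), a call that was lost without IDZ replicate 2 or 3 (adjusted p = 0.053 and 0.055) and with unmoderated variances.

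Creb3l2 went the opposite way. It read 10.92, 11.13, 11.20 and 10.99 on the SZ arrays, 11.39, 11.42, 11.36 and 11.39 on the IDZ arrays and 11.83, 11.69, 11.68 and 11.55 on the RZ arrays. Again no zone overlapped another, and the order was RZ, IDZ, SZ. RZ was above SZ by 0.63 (SE 0.09, adjusted p = 1e-04) and IDZ above SZ by 0.33 (SE 0.09, adjusted p = 0.016), the latter lost without SZ replicate 1 (adjusted p = 0.058) and with the fixed term for animals (adjusted p = 0.12). The difference of 0.30 between RZ and IDZ had an adjusted p of 0.068. The pair was set side by side after the values had been seen, and the arrays do not say which of the 2 genes was the more abundant, since each rests on its own probes. The fibrous tissue markers were also ordered SZ, IDZ, RZ, and their part in the level of Creb3l1 was not tested.

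Atf6, the membrane-bound sensor that is cut in the Golgi to become a transcription factor, read 8.59, 8.67, 8.73 and 8.09 in SZ, 7.95, 7.98, 7.86 and 8.21 in IDZ and 8.52, 8.36, 8.16 and 8.25 in RZ. SZ replicate 4 lay below IDZ replicate 4, so the zones overlapped. SZ was above IDZ by 0.52 (SE 0.14, adjusted p = 0.011), and the call was lost with the fixed term for animals (adjusted p = 0.051) and with the overall one-way p.

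The other stress factors were close in all 3 zones. Xbp1, which is spliced by the sensor IRE1, had means of 11.27 in SZ, 11.27 in IDZ and 11.43 in RZ, and its 95% interval was -0.20 to 0.20 for SZ minus IDZ and -0.04 to 0.36 for RZ minus IDZ. Atf4, the factor made when PERK slows translation, had means of 10.35, 10.36 and 10.36, with an interval of -0.20 to 0.20 for RZ minus IDZ. Ddit3, the CHOP gene of prolonged stress, had means of 7.45, 7.58 and 7.61, with an interval of -0.39 to 0.13 for SZ minus IDZ. None of these genes was called in any comparison, and the intervals leave differences of up to about these sizes open. The arrays measure the summed Xbp1 transcript and not its splicing.

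**Figure D2:**
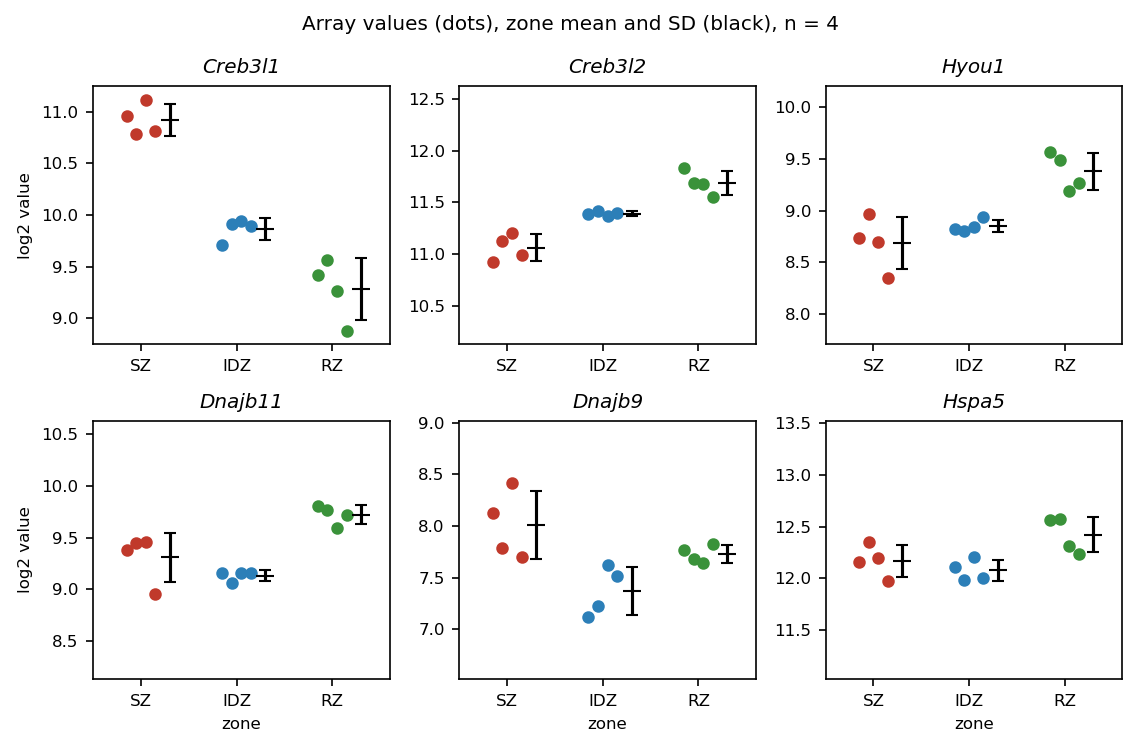
Each panel shows 1 gene with log2 value against zone, coloured dots for the 4 arrays of a zone and a black mark with bars for the mean and SD; all panels span the same 2.5 log2 units. Creb3l1 is highest in SZ and lowest in RZ, Creb3l2 the reverse, Hyou1 and Dnajb11 are highest in RZ, Dnajb9 is highest in SZ and Hspa5 overlaps between SZ and the other zones.

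All 10 ER chaperones had a higher mean in RZ than in IDZ, by 0.11 to 0.59 with a median of 0.34. The test was passed by 3, against 3.95% of all clusters and 6.77% of those above the median level. In 8 of the 10 every RZ array lay above every IDZ array, against 11.1% of all clusters and 19.7% of those above the median level. Dnajb11, a co-chaperone of BiP, read 9.80, 9.77, 9.59 and 9.72 in RZ, 9.16, 9.06, 9.16 and 9.16 in IDZ and 9.38, 9.45, 9.46 and 8.96 in SZ. RZ was the highest zone with no overlap. It exceeded IDZ by 0.59 (SE 0.11, adjusted p = 0.0039) and SZ by 0.41 (SE 0.11, adjusted p = 0.014). The call against IDZ held with every array left out and with either term for animals, and the call against SZ was lost with the fixed term (adjusted p = 0.092).

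Hyou1, a large chaperone that exchanges the nucleotide of BiP, read 9.57, 9.49, 9.19 and 9.27 in RZ, 8.83, 8.81, 8.84 and 8.94 in IDZ and 8.73, 8.96, 8.70 and 8.35 in SZ. Its RZ arrays lay above all others, whereas IDZ and SZ overlapped. RZ exceeded SZ by 0.69 (SE 0.12, adjusted p = 0.00066) and IDZ by 0.53 (SE 0.12, adjusted p = 0.018). The call against IDZ was lost without IDZ replicate 1, 2 or 3 or RZ replicate 1 or 2 (adjusted p of 0.053 to 0.068), with the fixed term for animals (adjusted p = 0.051) and with unmoderated variances. Manf, a small secreted ER stress protein, read 9.50, 9.71, 9.67 and 9.53 in RZ, 9.31, 9.19, 9.29 and 9.23 in IDZ and 9.16, 9.26, 8.93 and 9.13 in SZ. RZ exceeded SZ by 0.48 (SE 0.09, adjusted p = 0.0012) and IDZ by 0.35 (SE 0.09, adjusted p = 0.035), again with no overlap, and the second call was lost without any single IDZ or RZ array (adjusted p of 0.053 to 0.12), with either term for animals and under 2 of the 3 other scalings.

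A pair of chaperones was highest in SZ. Dnajb9, a BiP co-chaperone that restrains IRE1, read 8.13, 7.79, 8.42 and 7.70 in SZ, 7.12, 7.23, 7.62 and 7.52 in IDZ and 7.77, 7.68, 7.64 and 7.83 in RZ. The SZ arrays lay above all IDZ arrays and overlapped RZ. The difference between SZ and IDZ was 0.64 (SE 0.15, adjusted p = 0.0059) and its call was lost with the fixed term for animals (adjusted p = 0.072) and with the overall one-way p. Sdf2l1, a partner of Dnajb11 in the BiP cycle, read 7.78, 7.85, 7.52 and 7.64 in SZ, 7.23, 7.19, 7.15 and 7.27 in IDZ and 7.37, 7.53, 7.46 and 7.64 in RZ. SZ was above IDZ with no overlap, by 0.49 (SE 0.10, adjusted p = 0.0015), and this call held with either term for animals and with every array left out.

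The 5 other chaperones were called in no comparison. BiP itself (Hspa5) read 12.56, 12.57, 12.31 and 12.24 in RZ, 12.11, 11.98, 12.21 and 12.01 in IDZ and 12.15, 12.36, 12.19 and 11.98 in SZ. Its RZ arrays lay above all IDZ arrays, and the difference of 0.35 (SE 0.11) had an adjusted p of 0.075. Hsp90b1 (GRP94) had means of 11.51 in SZ, 11.40 in IDZ and 11.52 in RZ, and the lectin chaperones Calr and Canx differed between any 2 zones by at most 0.14 and 0.23. Dnajc3, which holds misfolded chains for BiP and inhibits PERK, differed by 0.38 between RZ and SZ with an adjusted p of 0.068.

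The promoters of the members were searched for the elements through which stress acts. ER stress induces genes through the ER stress element, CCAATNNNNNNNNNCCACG, which is bound by cut Atf6 with NF-Y, through the shorter ER stress element II, ATTGGNCCACG, and through the unfolded protein response element, TGACGTGG. These letters were searched on both strands of the RefSeq promoters (GRCr8), from 250 bases before to 50 bases after each gene start. An entry was found for 31 of the 38 genes and none for Manf, Pdia3, Pdia6, Atf6, Sec61a1, Sec24d and Kdelr2. The ER stress element was found in 6 of the 31 genes (Hspa5, Hsp90b1, Calr, Canx, Dnajc3 and Xbp1) and in 22 of 33365 distinct promoters in all (0.0659%). The ER stress element II was found in Hyou1, Dnajb11 and Herpud1 and in 17 promoters in all (0.0510%). The unfolded protein response element was found in Hyou1, Sec23a and Kdelr3 and in 199 promoters (0.596%), and the amino acid response element of Atf4 targets, TGATGCAAT, in 0 of the 31 genes and 63 promoters (0.189%). These motifs share letters, and in Hyou1 the unfolded protein response element overlaps the first of 2 copies of the ER stress element II. A match is a description of letters and not a measured binding site.

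The stretches around the matches are shown for the genes whose values are compared here, 5′ to 3′ on the strand of the gene, with the matched letters in capitals. The first 4 carry the ER stress element and the next 3 the ER stress element II, and Sec23a is shown as the known target of Creb3l2.
Hspa5 (chr3:38452961-38453003, plus strand): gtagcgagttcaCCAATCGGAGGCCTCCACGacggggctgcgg
Hsp90b1 (chr7:23012335-23012481, minus strand): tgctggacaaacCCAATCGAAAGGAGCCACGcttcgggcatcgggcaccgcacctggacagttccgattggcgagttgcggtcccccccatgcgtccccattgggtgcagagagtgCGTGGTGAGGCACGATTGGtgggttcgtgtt
Dnajc3 (chr15:102432522-102432564, plus strand): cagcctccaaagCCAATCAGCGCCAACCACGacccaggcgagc
Xbp1 (chr14:84604546-84604588, plus strand): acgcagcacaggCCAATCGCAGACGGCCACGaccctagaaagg
Hyou1 (chr8:53602679-53602816, plus strand): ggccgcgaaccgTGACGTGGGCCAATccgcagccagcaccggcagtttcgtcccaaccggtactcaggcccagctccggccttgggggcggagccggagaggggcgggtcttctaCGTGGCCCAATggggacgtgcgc
Dnajb11 (chr11:91672800-91672822, minus strand): tcccaggcggcgATTGGCCCACG
Herpud1 (chr19:10614809-10614843, minus strand): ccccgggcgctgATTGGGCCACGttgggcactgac
Sec23a (chr6:82440976-82441007, minus strand): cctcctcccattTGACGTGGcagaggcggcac

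The 6 genes with the ER stress element were called in no comparison, and their RZ minus IDZ differences ran from 0.11 to 0.35. Of the 3 genes with the ER stress element II, Hyou1 and Dnajb11 were higher in RZ than in both other zones, and Herpud1, an anchor of the degradation complex, was not called, with RZ minus IDZ at -0.09 (SE 0.13). In Dnajb11 the match ends on the start base itself, in Hyou1 the copies lie 188 to 178 and 88 to 78 bases before the start, and in Herpud1 the match lies 124 to 114 bases before it. With 3 and 6 genes grouped after their values were known, no difference between the motif groups was tested. Sec23a, the inner coat subunit of COPII, had means of 10.95 in SZ, 11.02 in IDZ and 11.12 in RZ and was not called, and its RZ minus SZ interval of -0.08 to 0.43 stands beside the 0.63 of Creb3l2.

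**Figure D3:**
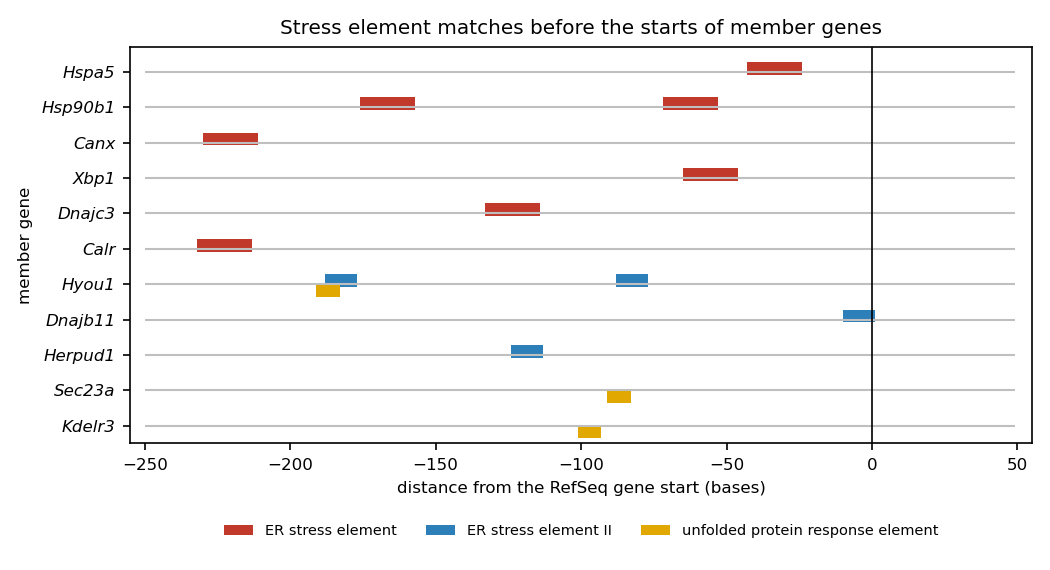
Each line is the promoter of 1 member gene, from 250 bases before the RefSeq start (0) to 50 bases after it, and the boxes mark matches of the 3 motifs by colour. Matches of the ER stress element lie between 232 and 25 bases before the start, and the boxes of the unfolded protein response element and the ER stress element II overlap in Hyou1.

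The 4 disulfide isomerases did not move as a block. P4hb, which is both a disulfide isomerase and the beta subunit of collagen prolyl 4-hydroxylase, read 12.53, 12.60, 12.59 and 12.54 in SZ, 12.90, 12.87, 12.83 and 12.83 in IDZ and 12.84, 12.84, 12.79 and 12.75 in RZ. SZ was the lowest zone with no overlap, by 0.29 against IDZ (SE 0.08, adjusted p = 0.010) and 0.24 against RZ (SE 0.08, adjusted p = 0.033). Pdia3, which works with calnexin and calreticulin on glycoproteins, was ordered the other way, at 12.47, 12.52, 12.54 and 12.50 in SZ, 12.29, 12.14, 12.19 and 12.25 in IDZ and 12.54, 12.43, 12.42 and 12.36 in RZ. SZ was above IDZ with no overlap, by 0.29 (SE 0.08, adjusted p = 0.014), and overlapped RZ.

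Pdia4 and Pdia6 were highest in RZ. Pdia6 read 10.83, 10.81, 10.58 and 10.70 in RZ, 10.54, 10.41, 10.47 and 10.56 in IDZ and 10.18, 10.38, 10.44 and 9.93 in SZ. Pdia4 read 11.12, 11.09, 10.97 and 10.95 in RZ, 10.80, 10.62, 10.76 and 10.82 in IDZ and 10.67, 10.78, 10.89 and 10.48 in SZ. RZ lay above SZ without overlap in each, by 0.50 (SE 0.11, adjusted p = 0.0042) for Pdia6 and 0.33 (SE 0.10, adjusted p = 0.027) for Pdia4. Among these isomerases the fixed term for animals ended every call. P4hb against RZ was also lost without SZ replicate 1 or 3 or any single RZ replicate (adjusted p of 0.051 to 0.094). Pdia4 was lost without SZ replicate 1 or RZ replicate 1 or 2 (adjusted p of 0.068 to 0.085), and Pdia3 without IDZ replicate 2 (adjusted p = 0.052) and under 75th percentile scaling, whereas P4hb against IDZ held with every array left out and was lost under repeated quantile normalization.

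Of the ER-associated degradation genes, Syvn1, the ubiquitin ligase Hrd1, was the one called. It read 9.34, 9.63, 9.47 and 9.03 in SZ, 9.67, 9.90, 9.80 and 9.81 in IDZ and 10.06, 9.91, 9.91 and 9.78 in RZ. All SZ arrays lay below the others, by 0.43 against IDZ (SE 0.12, adjusted p = 0.016) and 0.55 against RZ (SE 0.12, adjusted p = 0.0030). The first call was lost without IDZ replicate 2 (adjusted p = 0.054) and with the fixed term for animals (adjusted p = 0.089). Sel1l, its partner in the membrane, had means of 8.71, 8.59 and 8.67 in SZ, IDZ and RZ.

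The translocation genes differed in both directions in SZ. All 4 had higher means in RZ than in IDZ, by 0.20 to 0.27, and none of these differences passed the test. Sec61b, the small beta subunit of the channel, read 10.58, 10.40, 10.47 and 10.27 in SZ, 10.63, 10.53, 10.64 and 10.76 in IDZ and 10.80, 10.81, 10.90 and 10.84 in RZ. Ssr1, a subunit of the translocon-associated complex, read 10.61, 10.64, 10.80 and 10.50 in SZ, 10.80, 10.81, 10.89 and 10.94 in IDZ and 11.33, 11.22, 10.93 and 11.03 in RZ. Each was higher in RZ than in SZ with no overlap, by 0.40 (SE 0.09, adjusted p = 0.0039) and 0.49 (SE 0.10, adjusted p = 0.0026), and both calls held with every array left out and with either term for animals. Ssr3 of the same complex read 10.35, 10.07, 10.48 and 10.24 in SZ, 9.99, 9.72, 9.92 and 9.99 in IDZ and 10.11, 10.05, 10.19 and 10.23 in RZ. Here SZ was above IDZ, by 0.38 (SE 0.10, adjusted p = 0.014), a call lost without IDZ replicate 2 (adjusted p = 0.058), with the fixed term (adjusted p = 0.093) and under 2 of the 3 other scalings. Sec61a1, the channel itself, had means of 11.55, 11.29 and 11.56 and was not called.

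In the COPII group, Lman1 was the one gene called. It encodes the cargo receptor ERGIC-53 and read 10.86, 10.93, 11.18 and 10.63 in SZ, 11.21, 11.09, 11.02 and 11.08 in IDZ and 11.63, 11.49, 11.24 and 11.30 in RZ. RZ was above SZ with no overlap, by 0.52 (SE 0.12, adjusted p = 0.0054), a call lost with the fixed term for animals (adjusted p = 0.067). All 6 measured COPII genes had higher means in RZ than in IDZ, by 0.10 to 0.33, and the coat genes proper, Sec23a, Sec24d, Sec31a, Sec13 and Sar1b, were called in no comparison. Kdelr2, a receptor that returns escaped chaperones from the Golgi, read 12.39, 12.33, 12.22 and 12.11 in RZ, 11.93, 11.89, 11.97 and 11.83 in IDZ and 12.06, 12.12, 12.30 and 11.96 in SZ. RZ was above IDZ with no overlap, by 0.36 (SE 0.10, adjusted p = 0.036), and the call was lost without SZ replicate 1, any single IDZ array or RZ replicate 1, 2 or 3, where the adjusted p reached 0.12, and with either term for animals. Kdelr3 had means of 11.26, 11.38 and 11.45 in SZ, IDZ and RZ and was not called.

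**Figure D4:**
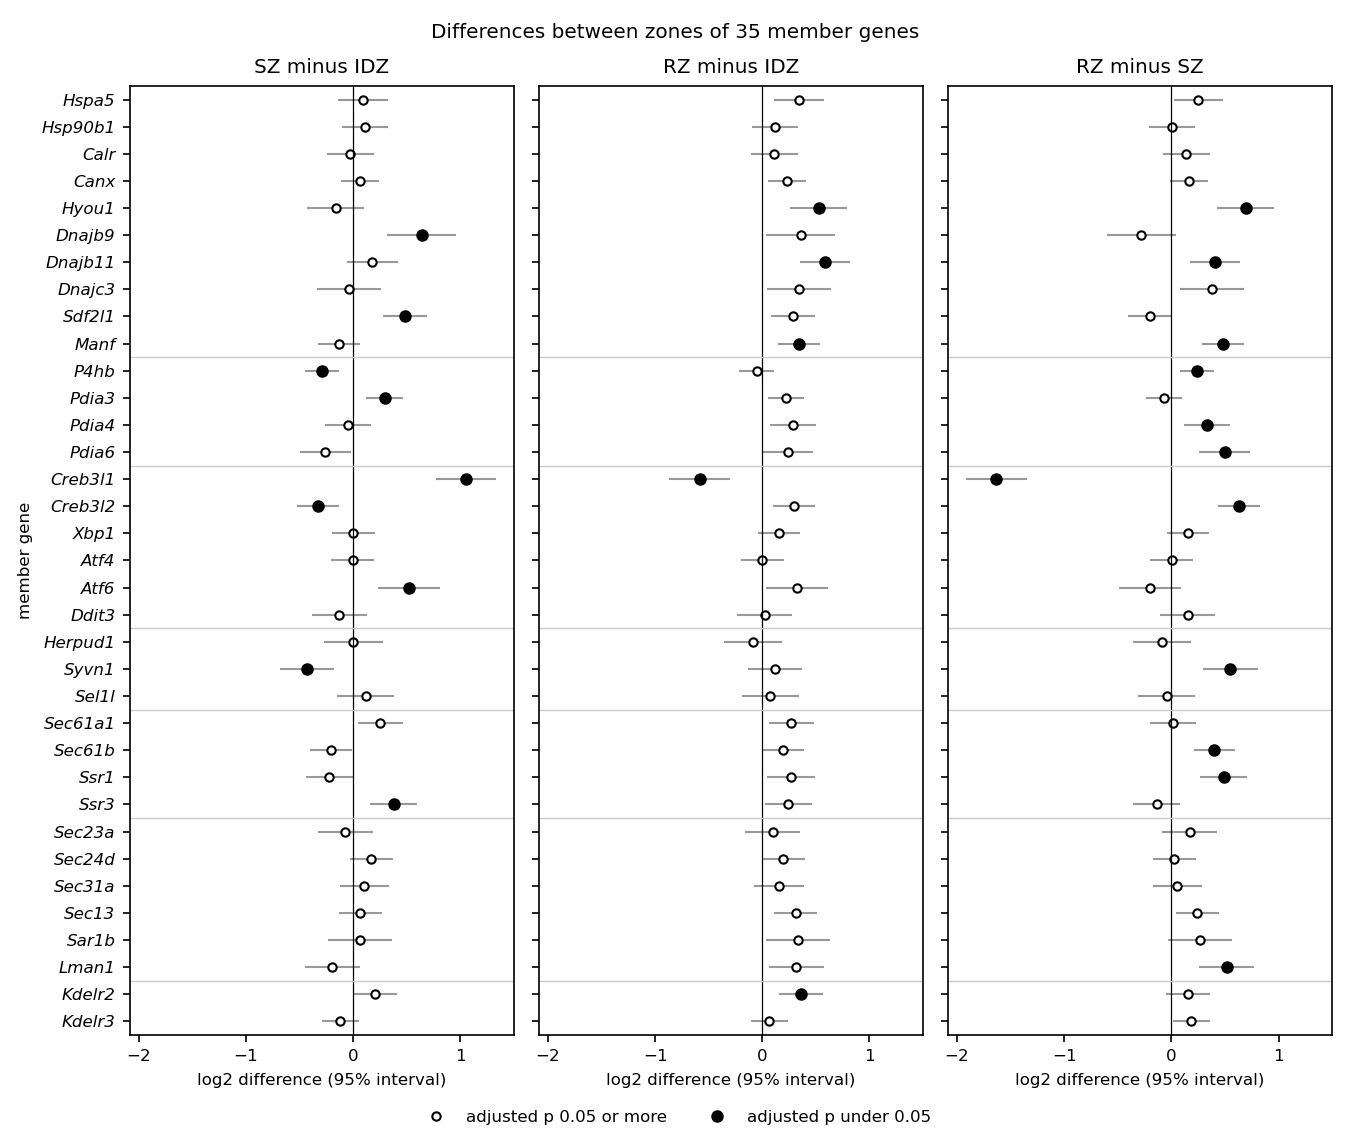
For each gene the dot is the log2 difference named above the panel, the line its 95% interval, and filled dots have an adjusted p under 0.05. In the middle panel 32 of 35 dots lie above 0, with 4 filled to the right and Creb3l1 filled to the left, and in the right panel 11 filled dots lie to the right.

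Other genes of the same pathways, 148 by list of which 125 were measured, were more often called lower than higher in SZ. They were lower in SZ than in IDZ for 34 genes (27.2%, against 11.2% of all clusters and 16.8% of those above the median level). They were higher for 12 (9.6%, against 11.8% and 18%). Lower in SZ than in RZ were 46 (36.8%, against 11.1% and 18.4%), and higher were 3 (2.4%, against 10% and 14.2%). Between RZ and IDZ, 9 were higher in RZ (7.2%, against 3.95% and 6.77%) and 4 in IDZ (3.2%, against 2.78% and 4.4%). The 7.2% is thus above the share of all clusters and near that of clusters above the median level. Not all of the 125 genes lay above that level. The median differences were -0.16 for SZ minus IDZ and 0.10 for RZ minus IDZ. Those of all clusters were -0.08 and -0.03, and those of clusters above the median level -0.05 and 0.03.

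Among 20 other ER folding genes, 11 were lower in SZ than in IDZ (55%, against 11.2% of all clusters). The 1 higher gene is 5%, against 11.8%, and the median difference was -0.41. Pdia5, another disulfide isomerase, had means of 8.24 in SZ, 9.19 in IDZ and 9.56 in RZ, with SZ minus IDZ at -0.95 (SE 0.20, adjusted p = 0.0024). Ero1a, the oxidase that recharges the isomerases, was at -0.77 (SE 0.15, adjusted p = 0.0011). Fkbp11, a prolyl isomerase of secretory cells, was higher in RZ than in IDZ by 0.83 (SE 0.11, adjusted p = 0.00026) and Prdx4, an ER peroxidase, lower by 0.58 (SE 0.13, adjusted p = 0.013).

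Of 16 collagen folding genes, 7 were lower and 1 was higher in SZ than in IDZ, and 8 were not called. These shares of 43.8% and 6.25% stand against 11.2% and 11.8% of all clusters. The prolyl 4-hydroxylase alpha subunits P4ha1, P4ha2 and P4ha3, partners of P4hb, were at -0.71, -0.99 and -1.32 for SZ minus IDZ, with SE of 0.11 to 0.16 and adjusted p of 0.00035 or less. The prolyl 3-hydroxylase P3h1 was at -0.78 (SE 0.09). Against this direction Fkbp7, an ER prolyl isomerase, read 10.05, 9.82, 10.11 and 9.63 in SZ and 8.65 to 8.95 in IDZ, with SZ higher by 1.10 (SE 0.11, adjusted p = 3.2e-06). The cartilage cargo list, matrix genes with Sox5 and Sox6, was lower in SZ than in IDZ for 12 of 13, with list means of 11.03 to 11.40 in SZ, 12.14 to 12.20 in IDZ and 12.06 to 12.24 in RZ, and Snorc was lowest at -1.41. None of the 13 differed between RZ and IDZ by the test, and Col2a1 was not called in any comparison.

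In the 16 other stress genes, 2 were higher and 2 lower in SZ than in IDZ. Each is 12.5% of the list, near the 11.8% and 11.2% of all clusters. Nupr1, a stress-induced nuclear protein, read 11.55, 10.74, 11.07 and 10.68 in SZ, 9.65, 9.63, 9.35 and 9.48 in IDZ and 8.63, 8.97, 8.71 and 8.69 in RZ, with no overlap, and SZ exceeded IDZ by 1.48 (SE 0.16, adjusted p = 6.6e-06). Atf3, an immediate stress factor that other signals also induce, was higher in SZ by 1.02 (SE 0.13, adjusted p = 2.5e-05). Atf5 and Eif2ak3, the PERK sensor, were lower by 0.57 and 0.30. Trib3, Chac1, Asns and Ppp1r15a were called in no comparison. Of these, Trib3 had zone means of 5.82 to 6.05, below the median level of all clusters (6.83).

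**Figure D5:**
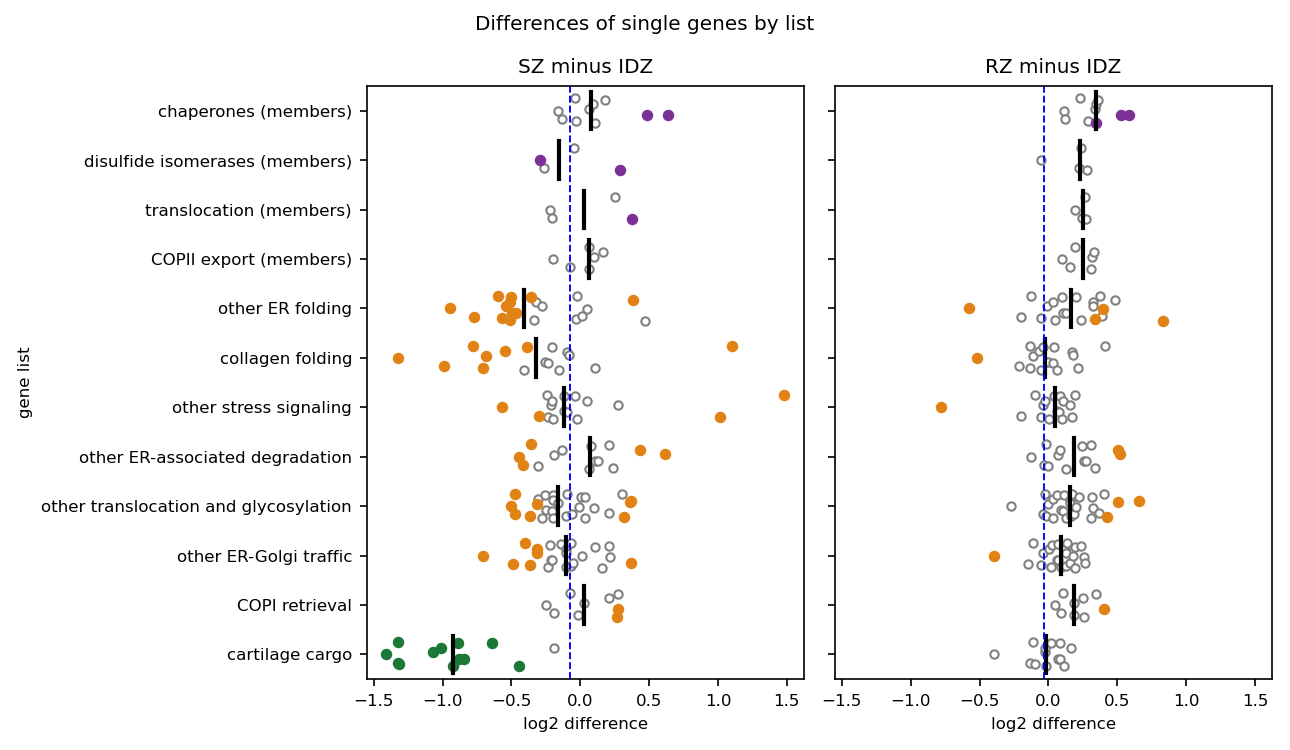
Each dot is 1 gene and gives its log2 difference between zones, filled where the adjusted p is under 0.05, the black bar is the median of the list and the dashed line the median of all clusters. Other ER folding, collagen folding and cartilage cargo lie mostly to the left in SZ minus IDZ, with medians of -0.41, -0.32 and -0.93, and the medians of the 4 member lists shown lie to the right of the dashed line in RZ minus IDZ.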

How the data were processed

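The deposited log2 values were used unchanged. The authors had made them by RMA in Partek Genomics Suite 6.6, with background adjustment, quantile normalization and median polish. Such normalization can hide a shift shared by most genes. Clusters were named from the platform annotation (15068 of 27342 with 1 symbol), and the brightest cluster stood for a gene. Differences between zones were fitted to all 12 arrays with limma 3.58.1 under R 4.3.3, each zone having its own mean, with Benjamini-Hochberg adjustment over all clusters within a comparison, and the fit was tested on simulated data. All 38 members could be named, those called were given on every array, and other genes were limited to 4 per list with the largest called difference and, for markers, the first genes of the list. Members and lists were chosen with earlier results of these data known. Equal numbers in IDZ and RZ stand for the same animals per the labels. The deviations of such samples from their zone means had correlations of 0.02, 0.02, 0.03 and 0.21 for replicates 1 to 4. The consensus correlation over all clusters was -0.14 within the pairs of animals, which also hold the SZ samples. Terms for animals were used only in alternatives. The p-values measure the spread between these samples, and the number of arrays limits the precision. Motifs were searched in RefSeq promoters (GRCr8) with Python 3.11.15 and pandas 2.3.3, and figures were drawn with matplotlib 3.10.9. Protein sequences were not analysed here.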

Additional observations from a re-analysis of the deposited data

Results flagged for a closer look

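Within a zone, 1 array lay far from the other 3 in 4 of 105 gene and zone groups, where chance flags about 1 in 20. Hsp90b1 read 11.78 on SZ replicate 3, against 11.41 to 11.43 on the other SZ arrays. Dnajb11 read 8.96 on SZ replicate 4, against 9.38 to 9.46, and 9.06 on IDZ replicate 2, against 9.16 on each of the others. Sec61a1 read 11.20 on IDZ replicate 4, against 11.31 to 11.33.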

How the results depend on the processing

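A total of 26 alternatives were run, and no called difference reversed. Numbers are genes called among the 35 members, with the share or number of all 27342 clusters called alike in brackets. Higher in SZ than IDZ, the count was 6 (11.8%), and it was 2 with the fixed replicate block by pair of animals (8.65%). It was 1 both at a 2-fold minimum (2.96%) and with treat against 1.2-fold (1598 clusters). Higher in IDZ than SZ, it was 3 (11.2%), 11 with the overall one-way p (11.5%) and 6 under 75th percentile scaling (3718 clusters). It was 0 with the fixed replicate block (6.35%), at 2-fold (0.977%) and with treat (851 clusters). Higher in RZ than IDZ, it was 4 (3.95%), 17 with the overall one-way p (12%) and 15 with 2 zones alone (8.91%). It was 8 with trended and robust variances (1110 clusters) and 7 without dim clusters (1172 of 13671). Under 75th percentile scaling (1066 clusters) and with the random replicate block (3.12%) it was 2. With the fixed replicate block it was 1 (2.37%), and it was 0 at 2-fold (0.399%) and with treat (235 clusters). Higher in IDZ than RZ, it was 1 (2.78%) and 2 with the overall one-way p (11.5%). It was 0 with unmoderated contrasts (547 clusters), at 2-fold (0.519%) and with treat (240 clusters). Higher in SZ than RZ, it was 1 (10%), and it was 4 with the overall one-way p (11.4%). Higher in RZ than SZ, it was 11 (11.1%), 6 with the fixed replicate block (6.95%), 2 with treat (994 clusters) and 0 at 2-fold (1.35%). The cause of these changes was not tested. Leaving out 1 array at a time gave 4 to 11, 2 to 3, 1 to 16, 0 to 1, 1 to 2 and 9 to 11 in the same order. The 11 of SZ over IDZ (18.1%), the 16 of RZ over IDZ (8.61%) and the 2 of SZ over RZ (13.5%) came without SZ replicate 4. The overall one-way p asks whether any zone differs and not which, so its counts are not calls of a pair of zones. The number of arrays limits what differences under 1.5-fold, the size of most here, can show.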

Other observations

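The remaining lists add genes of the same routes. Among 14 other ER-associated degradation genes, 2 were higher and 3 lower in SZ than in IDZ. This stands against 11.8% and 11.2% of all clusters, and 18% and 16.8% of clusters above the median level. Vcp, the ATPase that pulls chains out of the membrane, was higher in SZ than in IDZ by 0.61. It was also higher in RZ than in IDZ by 0.50, and its cofactor Nploc4 was higher in RZ than in IDZ by 0.52. Among 27 other translocation and glycosylation genes, 3 were higher in RZ than in IDZ, against 3.95% of all clusters and 6.77% of those above the median level. These were Srp9 (0.66) and Srprb (0.50) of signal recognition and Spcs1 (0.43) of the signal peptidase. In the same list 11 were lower in SZ than in RZ, against 11.1% of all clusters and 18.4% of those above the median level. Among 23 other ER-Golgi traffic genes, Tmed9, a cargo receptor of the p24 family, was lower in SZ than in IDZ by 0.71 and Ergic3 by 0.49. All 9 measured COPI retrieval genes had higher means in RZ than in IDZ, by 0.05 to 0.41, and Arf4 passed the test. Each value is a log2 difference between zones with n = 4 arrays each, and each named difference had an adjusted p under 0.05 in limma.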
